A study of Mus musculus with 43 samples.

Results

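Expression of 10 genes of the NF-kB pathway was followed in PD798, a cell line from a pancreatic ductal tumor of a genetically engineered mouse, in which Pdx1-Cre drives recombination from a pancreatic promoter. The line also carries Rosa YFP/YFP, which marks the recombined cells with a yellow fluorescent protein, and p53 L/+. The genes were taken by symbol as 4 subunits of the transcription factor (Nfkb1, Nfkb2, Rela and Relb), 3 proteins of the IkB family (Nfkbia, Nfkbie and Nfkbiz) and 3 other feedback or target genes (Tnfaip3, Birc3 and Tnfaip2). All 10 were present among the 13845 genes of the table on cell processing and among the 13817 genes of the table on cell input, and all 10 passed the filter on low values in both. The set was chosen by its symbols but not blind to measured values, because the adjusted p of limma's F test across the processing conditions was known, and Tnfaip3 and Nfkbia were selected on it as among the lowest. Their values in the processing conditions are therefore given as a description, and no test is read from them.

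In the processing experiment, bulk RNA was measured in 3 libraries each of 4 conditions of cultured PD798 cells, to ask whether isolation of tumor cells from blood alters their transcripts. Pre-FACS cells were set aside before sorting, Mock cells waited on the bench in staining buffer at room temperature, FACS-only cells went to the BD Influx sorter without the pre-enrichment step, and Pre-enriched cells passed through magnetic depletion and acoustic focusing coupled to the same sorter. By the study's account the sorted sample had first met magnetic particles and red cell lysis buffer, so FACS-only and Pre-FACS cells may differ in these treatments as well as in sorting. In the input series, cells spiked into healthy mouse blood were pre-enriched and sorted as single cells (n = 11) or pools of 10 (n = 12) and 100 cells (n = 6), and RNA of the bulk line (n = 2) served as a control. PD798 is a single line from a single tumor, and nothing in the labels says that replicates came from separate cultures, so that p-values measure only the spread between libraries, which may be technical.

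NF-kB is a family of dimeric transcription factors held in the cytoplasm by IkB proteins until a signal such as TNF, interleukin-1 or a bacterial product leads to phosphorylation and degradation of the inhibitor. The released dimers switch on genes of inflammation and survival, and among them the genes of their own inhibitors, which closes a negative feedback loop. Pancreatic tumor cells are known for persistent activity of this pathway, and Nfkbia and Tnfaip3 transcripts are among its most rapidly responding targets.

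NF-kB dimers recognize a DNA sequence called the kB consensus, which was searched for near the start sites of the members. RefSeq promoter windows (GRCm38.p6, from 250 bases before to 50 bases after each start, both strands searched) were at hand for 7 of the 10 members. At least 1 match was found for 4 of these 7 genes (Nfkbia, Tnfaip3, Nfkbie and Nfkb2), and in 6 of the 10 windows of the 7 genes, against 4.51% of all 32851 windows of that length. Nfkb2 alone gave 3 of these 6 windows, and no share by gene was computed for all genes. The members were also chosen as genes of this pathway, so nothing is read from the excess. No match lay in the windows of Rela, Birc3 and Tnfaip2, and windows of Nfkb1, Nfkbiz and Relb were not used here. Matches are shown for Nfkbia and Tnfaip3, on which the processing results turn, for the IkB gene and the subunit gene that overlapped between conditions, and for the chemokine gene Cxcl1, with the matched letters in capitals, each as 30 bases on the strand of its gene. A match describes these letters only and says nothing about binding.

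Nfkbia: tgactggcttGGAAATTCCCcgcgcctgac
Tnfaip3: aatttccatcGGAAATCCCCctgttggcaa
Tnfaip3: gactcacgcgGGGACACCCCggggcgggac
Nfkbie: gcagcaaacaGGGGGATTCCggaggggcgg
Nfkb2: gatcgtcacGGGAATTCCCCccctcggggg
Nfkb2: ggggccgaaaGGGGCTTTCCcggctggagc
Cxcl1: ctgtactccGGGAATTTCCCtggcccggag

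The Nfkbia stretch lies at chr12:55492657-55492686 on the minus strand, with its match at -29 to -20 from the start. The Tnfaip3 stretches lie at chr10:19015403-19015432 and chr10:19015516-19015545 on the minus strand, with matches at -12 to -3 and -125 to -116 from 1 of its 2 annotated starts. The Nfkbie stretch is at chr17:45555584-45555613 on the plus strand with its match at -106 to -97. The Nfkb2 stretches are at chr19:46304689-46304718 and chr19:46304716-46304745 on the plus strand, with matches at -39 to -29 and -11 to -2, and 2 further Nfkb2 matches are not shown. The first Nfkb2 stretch and the Cxcl1 stretch (chr5:90891165-90891194, plus strand, -71 to -61) each hold 2 overlapping matches, so that their capitals span 11 bases instead of 10. By the GENCODE annotation of mm10 the Nfkbia, Nfkbie and Cxcl1 stretches lie upstream of their genes (chr12:55489410-55492647, chr17:45555703-45563169 and chr5:90891241-90893115), and the Tnfaip3 and Nfkb2 stretches lie within the spans of theirs (chr10:19000910-19015657 and chr19:46304320-46312385).

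Values are TPM, transcript abundances corrected for transcript length and scaled to a fixed total per library, so levels of different genes can be set side by side. Within the 12 processing libraries the members kept a nearly fixed order. Nfkbia (IkB-alpha, the inhibitor that retains Rela dimers in the cytoplasm) was the highest member in 12 of 12 libraries, at 221 to 410.4 TPM. Rela (p65, the main transactivating subunit) followed at 189 to 246 TPM. Tnfaip3 (A20, a ubiquitin-editing enzyme that shuts off signalling upstream of the IkB kinase) ranged from 156 to 253 TPM and lay under Rela in 10 of 12 libraries. Nfkb2 (p100, precursor of p52 in the non-canonical pathway) ranged from 109 to 139.8 TPM and exceeded Nfkbiz in 9 of 12.

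Nfkbiz (IkB-zeta, a nuclear IkB protein that acts as a cofactor at some target genes) ranged from 78.0 to 159 TPM. Tnfaip2, a TNF-induced gene, was at 61.2 to 78.1 TPM and Relb, the non-canonical partner of p52, at 59.5 to 69.5 TPM, an order that held in 9 of 12 libraries. Nfkbie (IkB-epsilon) was at 34.2 to 43.7 TPM, Birc3 (cIAP2, an inhibitor of apoptosis and ubiquitin ligase) at 25.7 to 34.7 TPM, and Nfkb1 (p105, precursor of p50) was the lowest member in 12 of 12 libraries, at 12.0 to 17.0 TPM. Neighbours whose order changed between libraries were thus Rela and Tnfaip3, Nfkb2 and Nfkbiz, Tnfaip2 and Relb, and Nfkbie and Birc3, the last in 1 of 12 libraries.

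**Figure D1:**
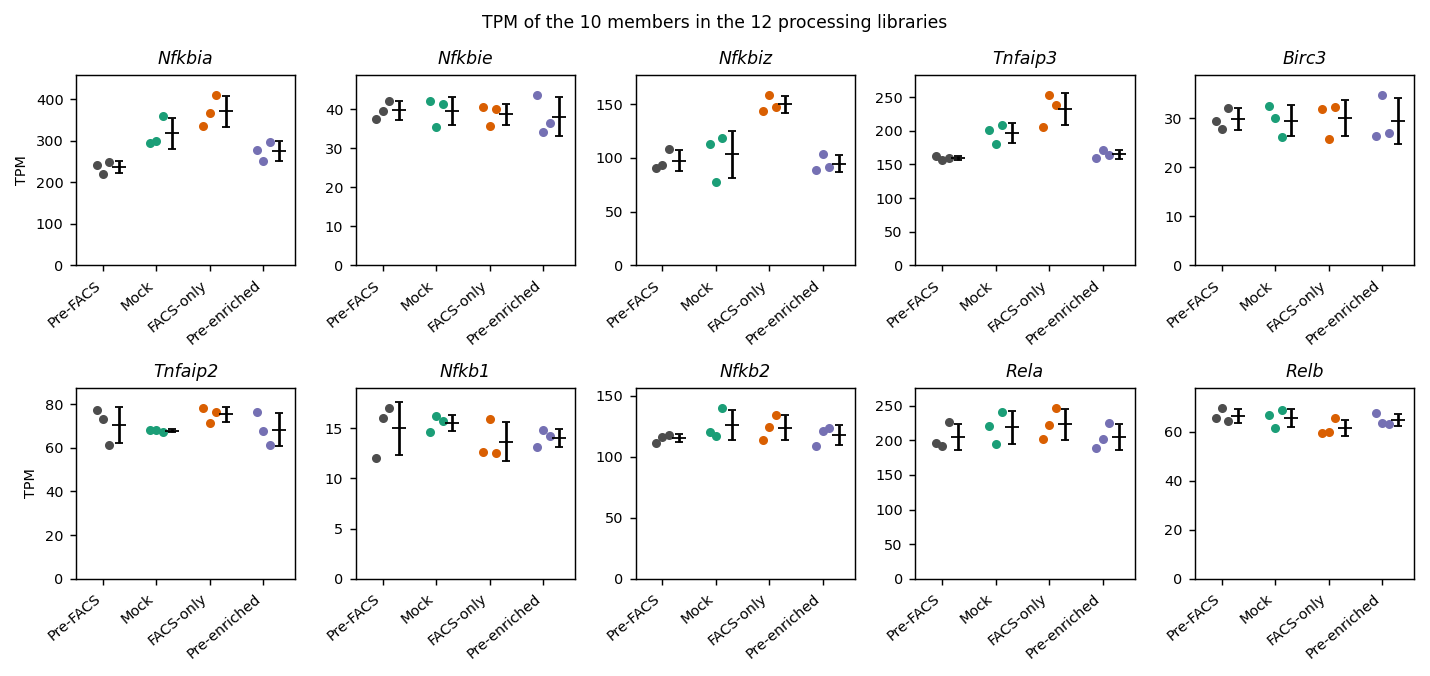
TPM of each member (y axis, from 0, on a scale of its own) in the 4 processing conditions (x axis); points are libraries, n = 3 per condition, and the bar beside them is the mean ± SD. Nfkbia, Tnfaip3 and Nfkbiz are high in FACS-only libraries, where all 3 values lie above all 3 Pre-FACS values, and the other 7 members overlap between these conditions.

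The feedback genes Nfkbia, Tnfaip3 and Nfkbiz had their highest mean levels in cells sorted without pre-enrichment. Rela, Birc3 and Tnfaip2 did so too, but overlapped with Pre-FACS libraries, and Nfkbie had its highest mean in Pre-FACS cells. Nfkbia was at 241, 221 and 249 TPM in Pre-FACS libraries, at 294, 299.6 and 359.8 TPM in Mock, at 336, 367 and 410.4 TPM in FACS-only, and at 277, 251 and 298 TPM in Pre-enriched libraries. All 9 libraries of the other 3 conditions therefore lay above the 3 Pre-FACS libraries, with FACS-only and Mock overlapping. On the log2(TPM + 1) scale, FACS-only exceeded Pre-FACS by 0.64 (95% interval 0.46 to 0.83), Mock exceeded it by 0.42 (0.23 to 0.60) and Pre-enriched by 0.21 (0.03 to 0.40).

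Tnfaip3 was at 162, 156 and 159 TPM in Pre-FACS libraries, at 201, 179.8 and 209 TPM in Mock, at 206, 253 and 238 TPM in FACS-only, and at 159, 172 and 164 TPM in Pre-enriched libraries. Pre-FACS and Pre-enriched overlapped, and both lay below every Mock and FACS-only library. FACS-only exceeded Pre-FACS by 0.54 (0.38 to 0.69), Mock exceeded it by 0.30 (0.15 to 0.46), and Pre-enriched differed from it by 0.05 (-0.10 to 0.21). Between the sorted conditions, Pre-enriched was below FACS-only by a log2 difference of -0.49 (-0.64 to -0.33).

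Nfkbiz was at 90.3, 93.0 and 108 TPM in Pre-FACS libraries, at 113, 78.0 and 119 TPM in Mock, at 143, 159 and 148 TPM in FACS-only, and at 88.8, 104 and 91.5 TPM in Pre-enriched libraries. Every FACS-only library was above the other 9, and the remaining conditions overlapped, with the Mock libraries the most spread. FACS-only exceeded Pre-FACS by 0.62 (0.36 to 0.88) and Mock by 0.56 (0.30 to 0.81), whereas Mock and Pre-FACS differed by 0.07 (-0.19 to 0.32). Nfkbiz did not pass the threshold in any of these comparisons (adjusted p = 0.0622 for FACS-only against Pre-FACS and 0.664 against Mock, limma). It passed in FACS-only against Pre-FACS when Mock replicate 2 (adjusted p = 0.00529) or Mock replicate 3 (0.0375) was left out, or when only these 2 conditions were fitted (0.0241).

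Across the 4 conditions, limma's F test called 2 of the 10 members, Nfkbia and Tnfaip3, where 0.107% of the 12159 genes tested were called. Since these are the values by which both came to be chosen, nothing is read from that count. The call rested on the estimate of spread and on single libraries: without a mean-variance trend 0 members were called, and 0 were called after removal of any Pre-FACS library, Mock replicate 1, FACS-only replicates 2 or 3, or Pre-enriched replicates 1 or 3. Without Mock replicate 2, 3 members were called, with Nfkbiz added, beside 0.0659% of all genes. The other 8 members were not called, with adjusted p of 0.127 for Nfkbiz and 0.855 to 0.999 for the remaining 7.

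In FACS-only against Pre-FACS the same 2 members were called, both higher (background 0.123%, and 0.0987% in the higher direction). The contrast comes from the same fit by which both were chosen, so nothing is read from this count either. Both stayed called in each of the 12 fits that left out a library. These fits reuse the libraries by which both were chosen, so this is a description as well. Without a mean-variance trend 0 of the members and 0 of all genes were called. All 3 FACS-only values lay above all 3 Pre-FACS values for 3 of 10 members, against 5.81% of all genes. The median difference of the 10 members was 0.10, beside 0.00 for all genes. Nfkbia and Tnfaip3 are among the 3 members without overlap and count in the median. Nothing is therefore read from that share or from the median.

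The remaining comparisons gave no called member, and their values are set side by side because they share libraries. The F test by which Nfkbia and Tnfaip3 were chosen spans every pair of conditions. Counts of members in the remaining pairs are therefore a description as well. Nothing is read from them beside the shares of all genes. For Mock against Pre-FACS, 0 of 10 members were called by limma (background 0.00822%) and 2 of 10 were past an unadjusted p of 0.05, beside 4.53% of all genes. Mock lay wholly above Pre-FACS for Nfkbia and Tnfaip3 (2 of 10 members, against 4.93% of genes). For Pre-enriched against Pre-FACS, 0 were called (background 0.0493%), 1 was past the unadjusted p (9.18% of genes), and only Nfkbia lay wholly above (1 of 10 members, against 6% of genes).

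FACS-only against Mock gave 0 called members (background 0%) and 3 past an unadjusted p of 0.05 (5.63% of genes), and Nfkbiz and Tnfaip2 were wholly higher (2 of 10 members, against 5.11% of genes). Pre-enriched against Mock gave 0 called (background 0%) and 2 past the unadjusted p (7.77% of genes), with Tnfaip3 wholly lower (1 of 10, against 8.81% of genes). Pre-enriched against FACS-only gave 0 called (background 0%) and 3 past the unadjusted p (6.75% of genes), and Nfkbia, Tnfaip3 and Nfkbiz were wholly lower in Pre-enriched cells (3 of 10, against 7.41% of genes), with adjusted p of 0.236 for Nfkbiz. In that pair Nfkbiz and Tnfaip3 were called without Mock replicate 2 (0.0165% of genes), and Tnfaip3 without FACS-only replicate 1 (0.00825% of genes). Without a mean-variance trend 0 members were called in each of these 5 comparisons.

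**Figure D2:**
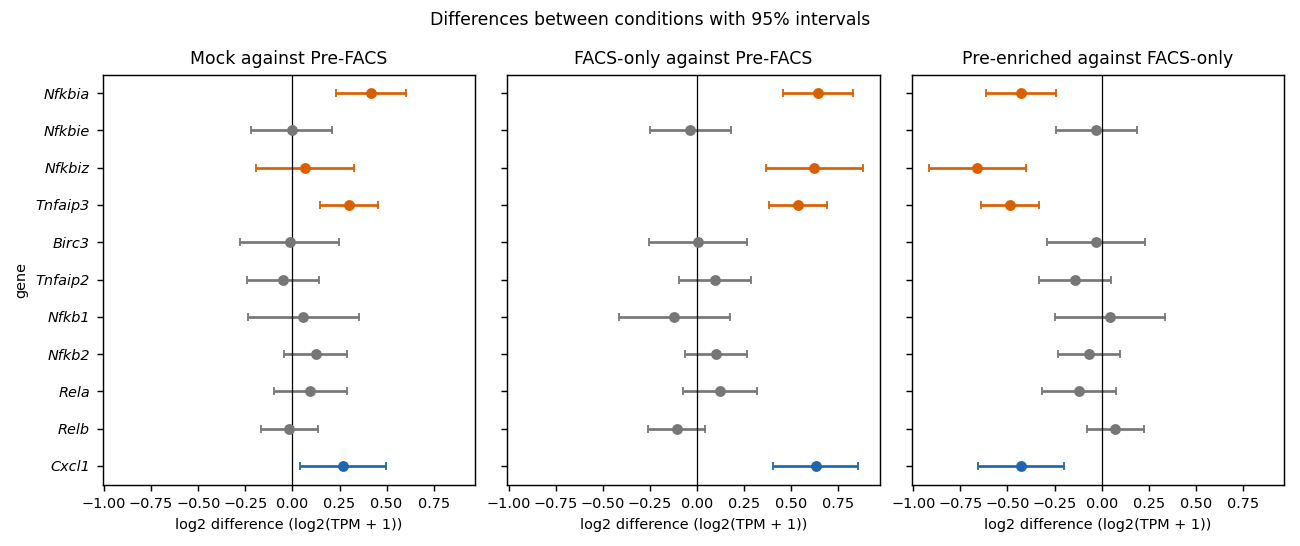
Log2 differences on the log2(TPM + 1) scale (x axis) with 95% intervals for the 10 members and Cxcl1 (y axis) in 3 pairs of conditions, each from 12 libraries in a single limma fit. Nfkbia, Tnfaip3 and Nfkbiz stand at 0.64, 0.54 and 0.62 in FACS-only against Pre-FACS, and the other 7 members lie between -0.12 and 0.12 there.

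None of the 4 subunit genes was called in any pair of conditions. Rela averaged 205 ± 18.5 TPM (SD, n = 3 in each condition) before sorting, 219 ± 23.6 TPM in Mock cells, 223 ± 22.4 TPM in FACS-only cells and 205 ± 18.3 TPM after pre-enrichment. Nfkb2 averaged 115 ± 3.20, 126 ± 12.2, 124 ± 10.3 and 118 ± 7.98 TPM in the same order, and Relb 66.4 ± 2.77, 65.7 ± 3.73, 61.6 ± 3.34 and 64.8 ± 2.56 TPM. Nfkb1 averaged 15.0 ± 2.63, 15.5 ± 0.797, 13.6 ± 1.92 and 14.0 ± 0.868 TPM. In each of the 6 pairs of conditions 0 of the 4 subunits were called, 0 were past an unadjusted p of 0.05 and none had groups that did not overlap. The intervals still allow modest differences, for example -0.07 to 0.32 for Rela and -0.26 to 0.04 for Relb in FACS-only against Pre-FACS.

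Nfkbie, Birc3 and Tnfaip2 likewise overlapped between FACS-only and Pre-FACS libraries. Nfkbie, whose window holds the kB match shown above, differed by -0.04 (-0.25 to 0.18). Birc3 differed by 0.00 (-0.26 to 0.27) and Tnfaip2 by 0.10 (-0.09 to 0.29). Against Mock, where Tnfaip2 was at 67.1 to 68.3 TPM, the FACS-only libraries were higher without overlap, at 71.3 to 78.1 TPM.

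Of 106 other genes of the pathway that were listed by role, 96 were in the processing table and 92 were tested. Across the 4 conditions limma's F test called 0 of the 92 (background 0.107%), with 10 past an unadjusted p of 0.05, beside 7.56% of all genes. In FACS-only against Pre-FACS, 1 was called (background 0.123%), Cxcl1, a neutrophil-attracting chemokine and a classical NF-kB target. Cxcl1 was at 325, 295 and 317 TPM in Pre-FACS, at 364, 332 and 439.8 TPM in Mock, at 439, 471 and 545 TPM in FACS-only, and at 332, 328 and 425 TPM in Pre-enriched libraries.

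FACS-only libraries were all above Pre-FACS libraries for Cxcl1, with a difference of 0.63 (SE 0.107, adjusted p = 0.0368, limma), close to that of Nfkbia. The call was lost without a trend (adjusted p = 0.279), without the filter on low values (0.0570), and after removal of any Pre-FACS library, Mock replicate 1, or FACS-only replicates 2 or 3 (0.0509 to 0.186). It held in 11 of 19 alternatives, with adjusted p from 0.000114 to 0.279. Pre-enriched cells differed from FACS-only cells in Cxcl1 by -0.43 (SE 0.107, adjusted p = 0.437).

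By role, 0 of 15 ligands and receptors, 0 of 15 adaptors and ubiquitin ligases, 0 of 11 kinases, 0 of 1 other subunit, 0 of 17 other IkB proteins and inhibitors and 1 of 33 targets were called in FACS-only against Pre-FACS. Their median differences were 0.00, -0.04, 0.02, 0.53, -0.02 and 0.05, beside 0.00 for all genes. Tnf, the cytokine that signals through this pathway, was at 8.52 to 8.95 TPM in Pre-FACS and 10.3 to 15.5 TPM in FACS-only libraries, a difference of 0.55 (SE 0.167, adjusted p = 0.425). Rel (c-Rel, the subunit not among the members) was at 5.71 to 9.65 TPM and 10.3 to 14.5 TPM, a difference of 0.53 (SE 0.195, adjusted p = 0.577).

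Tab1, an adaptor of the TAK1 kinase, was at 52.4 to 54.1 TPM in Pre-FACS and 37.1 to 43.4 TPM in FACS-only libraries, a difference of -0.37 (SE 0.0824, adjusted p = 0.119). Sharpin, of the linear ubiquitin ligase complex, differed by 0.17 (SE 0.0650, adjusted p = 0.607). Tnip3, a partner of A20, was at 22.7 to 27.7 TPM in Pre-FACS and at 28.2 to 32.1 TPM in Pre-enriched libraries (adjusted p = 0.657 across the 4 conditions). The largest difference of any listed gene in FACS-only against Pre-FACS was that of the chemokine Cxcl2, named after its value was seen, at 1.16 (SE 0.306, adjusted p = 0.278). None of these values passed the threshold.

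**Figure D3:**
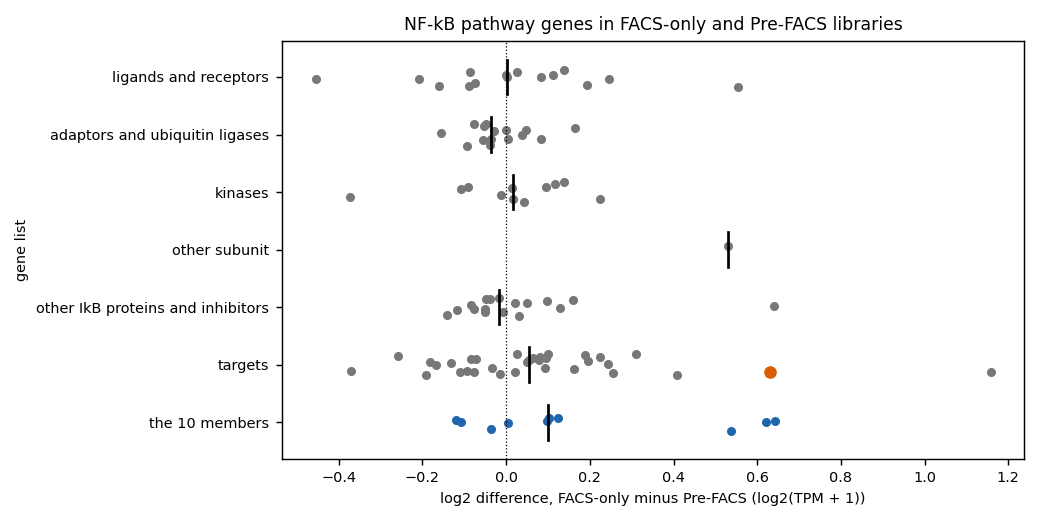
Log2 difference, FACS-only minus Pre-FACS, on the log2(TPM + 1) scale (x axis) for the 92 other pathway genes by role and for the 10 members (y axis); points are genes, vertical lines are medians, and the large orange point is Cxcl1, which alone of the 92 was called. Apart from Rel, the only gene of its list, at 0.53, the list medians lie between -0.04 and 0.05, and the members' median is 0.10 with 3 genes above 0.5.

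The genes whose profiles over the 12 libraries were most like those of Nfkbia and Tnfaip3, members left out, are given as a description, since the points share conditions. For Tnfaip3 they were Nr1d1 (Pearson's r = 0.937), Per1 (0.908), Klf6 (0.906), Plk2 (0.897) and Kdm5b (0.881), and for Nfkbia they were Plk2 (0.953), Herpud1 (0.946), Cxcl1 (0.943), Ier3 (0.941) and Nr1d1 (0.929). Among the members, r was 0.889 for Nfkbia with Tnfaip3, 0.853 for Nfkbiz with Tnfaip3 and 0.706 for Nfkbiz with Nfkbia. The subunits ranged from 0.661 for Rela to -0.331 for Relb against Nfkbia.

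The label of the cells was checked against marker genes. All 8 markers of ductal epithelium were listed, with sums of 23906 to 27366 TPM over the 12 processing libraries, led by keratins such as Krt8 and Krt18. The other epithelial markers were uneven, with Cdh1 at 976 to 1057 TPM, Epcam at 32.1 to 38.9 TPM, Cldn4 at 3.39 to 8.73 TPM and Cldn7 at 2.78 to 7.65 TPM. In the input table, which was scaled separately, their medians were 107 TPM for Cdh1, 831 TPM for Epcam, 258 TPM for Cldn4 and 600.1 TPM for Cldn7. By these medians Cdh1 was lower, and Epcam, Cldn4 and Cldn7 were higher, than in the processing libraries. The input medians cover all 31 input libraries, mostly single cells and pools, whereas the processing libraries were bulk RNA. Over the input libraries Cdh1 ranged from 16.7 to 939 TPM, Epcam from 0 to 2349, Cldn4 from 0 to 1444 and Cldn7 from 16.0 to 984 TPM. The amount of input and the series therefore cannot be told apart by these medians, and the reason for the differences was not tested. Of 26 blood markers 8 were listed, with sums of 18.8 to 21.4 TPM before sorting (Pre-FACS), 17.2 to 23.0 TPM for Mock, 18.8 to 21.8 TPM for FACS-only and 19.7 to 25.1 TPM for Pre-enriched cells. The leukocyte marker Ptprc reached at most 0.689 TPM, whereas Cd68 was at 6.18 to 13.6 TPM and Lcp1 at 3.73 to 7.05 TPM. The blood sums of the 4 conditions overlapped, and their part in the members' values was not tested. In RNA from many cells, fewer cells of a type and less RNA per cell cannot be told apart.

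In the input series several libraries went against their labels. The libraries labelled single cell 6 and 9 and 10-cell pools 5 and 12 resembled 100-cell pools 1 to 3 (mean Pearson's r across 12325 genes of 0.991, 0.972, 0.990 and 0.992), whereas the other 9 single cells had r of 0.646 to 0.827 with those pools and the other 10-cell pools 0.885 to 0.953. They held 11223 to 11498 genes at 1 TPM or more, against 3919 to 8598 in the other single cells and 9149 to 10760 in the other 10-cell pools. The 100-cell pools 4 to 6 stood apart as well, with r of 0.878 to 0.897 to pools 1 to 3. Results are therefore given with and without these libraries. Genes of the table held 54.2% to 99.99% of the TPM total, least in single cells.

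Nfkbia was detected in every input library. It was at 30.7 to 629.96 TPM in the 11 libraries labelled single cells (median 375), at 267 to 669 TPM in 10-cell pools, at 376, 382 and 419.7 TPM in 100-cell pools 1 to 3, at 168, 267 and 279 TPM in pools 4 to 6, and at 343 and 341 TPM in bulk RNA. All 31 libraries had it at 1 TPM or more. It was the highest member in 10 of 11 single cells, the exception being a cell in which Relb and Nfkbie were higher. No comparison between neighbouring inputs called it (adjusted p = 0.250, 0.783 and 0.435, limma).

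Apart from Nfkbiz, the other members were found in some cells and not in others. Among the 9 libraries labelled single cells that did not resemble pools, Rela was at 0 in 1 and at 24.1 to 121 TPM in the other 8, and Relb was at 0 in 1 and at 3.75 to 117 TPM in 8. Nfkbiz was at 1 TPM or more in all 9, at 1.19 to 62.4 TPM. Tnfaip3 was at 1 TPM or more in 4 of 9, at 14.0, 22.7, 56.8 and 76.5 TPM, and at most 0.143 TPM in the other 5, 3 of which were listed at 0.

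Nfkbie also split the cells, with 50.2, 60.7 and 61.4 TPM in 3 of the 9, 8.73 TPM in 1 and less than 1 TPM in 5. Birc3 was at 1 TPM or more in 2 of 9 cells, at 13.7 and 2.09 TPM. Nfkb1 was at 1 TPM or more in 5, Tnfaip2 in 5 and Nfkb2 in 6 of the 9 cells, with Nfkb2 at 71.4 TPM in 1 cell and at most 11.0 TPM in the others. In all, 60 of 90 member values in these cells were at 1 TPM or more (66.7%), beside 41.7% of all values of the table. The latter share covers all 13817 genes, low ones included, and was not matched to the level of the members. All members were at 1 TPM or more in every pool and bulk library. A listed 0 may be a transcript that was not captured, as TPM keeps no record of depth, and was not told apart from absence here.

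**Figure D4:**
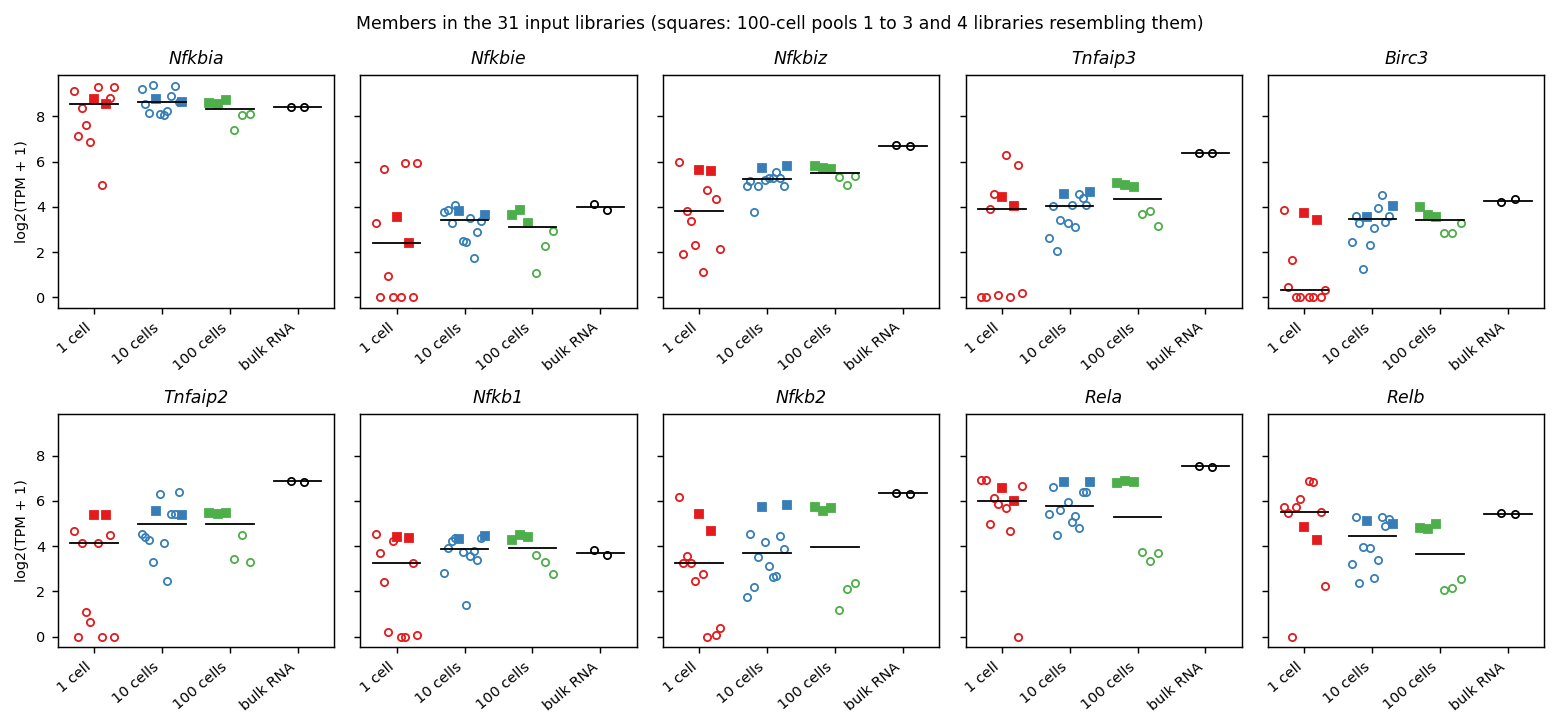
Log2(TPM + 1) of each member (y axis) in the 31 input libraries (x axis, 1, 10 and 100 cells and bulk RNA); points are libraries, lines are medians, and filled squares mark single cells 6 and 9, 10-cell pools 5 and 12 and 100-cell pools 1 to 3. The squares lie above 0 for every member, 100-cell pools 4 to 6 (open green) are low for Rela, Relb and Nfkb2, and open red points spread from 0 upward for most members.

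Between 10-cell pools and single cells, limma called 2 of 10 members, both higher in pools, where 21.1% of all genes were called (21% higher). They were Nfkbiz, at 1.43 (SE 0.469, adjusted p = 0.0296), and Birc3, at 2.02 (SE 0.598, adjusted p = 0.0171). The members' median difference of 0.93 was near the 0.91 of all genes, so that the share and the size both sat at the background. The call of Nfkbiz was lost without single cell 7 (adjusted p = 0.0825) and after rescaling each library to the same TPM total (0.0944), where the called share of all genes also fell, to 13.6% and 11.8%. Without the 4 libraries that resembled 100-cell pools, Nfkbiz, Birc3 and Tnfaip2 were called (3 of 10, against 24.7% of genes).

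Between 100-cell and 10-cell pools, 0 of 10 members were called (background 0.105%) and 0 were past an unadjusted p of 0.05 (6.77% of genes). All 10 members were lower in each of the 100-cell pools 4 to 6 than in each of pools 1 to 3, as were 58.8% of all genes tested. Rela was at 112, 115 and 116 TPM in pools 1 to 3 and at 12.0, 12.3 and 9.30 TPM in pools 4 to 6, and Nfkb2 was at 45.8, 50.3 and 52.5 TPM against 1.26, 3.27 and 4.24 TPM. Relb was at 26.2 to 30.4 TPM against 3.12 to 4.78 TPM. Nfkbiz was at 50.5 to 54.6 TPM against 30.1 to 39.8 TPM.

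Without pools 4 to 6, 5 members were called higher in 100-cell pools (Nfkb1, Nfkb2, Rela, Nfkbiz and Tnfaip3), where 42.7% of all genes were called higher. Without all 7 libraries, 7 were called (Relb and Tnfaip2 in addition), against 45.7% of genes. The comparison thus depended on which pools were kept, for the members as for the table as a whole.

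Bulk RNA exceeded the 100-cell pools in most members. Tnfaip3 was at 81.3 and 81.4 TPM in bulk RNA and at 28.1 to 31.9 and 7.96 to 13.1 TPM in pools 1 to 3 and 4 to 6, and Tnfaip2 was at 115 and 117 TPM against 42.4 to 43.6 and 8.84 to 21.7 TPM. In a limma fit with a weight for each input, 8 of 10 members were called higher, from 0.91 for Birc3 (SE 0.315, adjusted p = 0.0114) to 2.58 for Nfkb2 (SE 0.528, adjusted p = 7.60e-05), with Nfkbia and Nfkb1 not called. The background was 65.6% of genes (53.3% higher), the members' median difference was 1.56 and that of all genes 0.79.

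The calls stood on the weight of the 2 bulk libraries, which agreed closely. With no weights, or with 1 bulk library, 0 members were called, and an exact two-sided permutation test of 2 against 6 libraries cannot give a p below 0.0714, which was reached by 7 of the 10 members. Without pools 4 to 6, 7 members were called higher in bulk RNA (50.4% of genes) and 1, Nfkb1, lower (2285 of 12236 genes). The members' median was 0.64, beside 0.35 for all genes. The differences of Nfkb2, Rela and Relb, at 2.58, 2.31 and 1.90 with all pools, were then 0.69, 0.69 and 0.60, and Tnfaip3 had the largest difference of the members, at 1.41. Blood markers, of which 10 of 26 were listed, summed to 0 to 322 TPM in single cells, 23.5 to 239 in 10-cell pools, 94.1 to 239.7 in 100-cell pools and 85.6 to 96.4 TPM in bulk RNA, and their part in these differences was not tested.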

How the data were processed

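The authors aligned reads to mm10 with ERCC92 added (STAR), counted them per gene (featureCounts), scaled the counts with EDASeq (upper quartile) and deposited TPM. The paper gives mean depths for the input series and a minimum depth, but TPM does not keep the depth of each library. Changes of low genes are understated on the log2 scale used here. The gene annotation used for counting is not given in the sources used here. The labels mention blood for every sample, and whether the processing cells met blood was not settled. Unused value columns numbered 0. A further allele of the line is not reported here.

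From the deposited TPM, log2(TPM + 1) was fitted with limma 3.58.1 (R 4.3.3, empirical Bayes with trend) for genes with at least 1 TPM in 3 libraries (12159 of 13845 in processing, 12325 of 13817 in input), in 1 model per table. Input groups were given weights of 0.257, 1.50, 1.70 and 31.5. P-values were adjusted by Benjamini-Hochberg over all genes tested, with a threshold of 0.05 for a call. Groups are wholly above or below when no values overlap. The fit was tested on simulated data. Promoters and coordinates come from RefSeq and GENCODE.

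The members, the gene lists and the tests were chosen with earlier results of these data known. Named pathway genes are the gene of lowest F test p in each list and any gene called, and named like genes the 5 non-members of highest r. Other pseudocounts, filters, normalization, trend, block, weights and left-out libraries were tried. Leaving out the libraries that went against their labels was chosen after seeing the data.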

Additional observations from a re-analysis of the deposited data

How the results depend on the processing

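Without a mean-variance trend, 0 members were called across the 4 conditions and 0 in FACS-only against Pre-FACS, in place of 2 and 2. Leaving out each library in turn gave 0 to 3 called members across the 4 conditions, where 0.00824% to 0.140% of all genes were called. In FACS-only against Pre-FACS it gave 2 to 3, beside 0.0412% to 0.198% of genes. In Pre-enriched against FACS-only it gave 0 to 2, beside 0% to 0.0165% of genes (2 on removal of Mock replicate 2 and 1 on removal of FACS-only replicate 1). With only the libraries of both conditions, the latter comparison called 1 member, Nfkbiz, beside 0.00840% of genes.

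The main fit took no account of the replicate numbers. Deviations from the condition means were correlated between libraries of different conditions. Among 18 pairs with the same number, r was -0.0422 to 0.229 (median 0.0693) and 2 were over 0.1. Among 36 pairs with different numbers the median was -0.0300. For 11 of 12 libraries, mean r was highest with the libraries of their own number. Libraries of the same number may thus be related, and a replicate block raised the share of all genes called across the 4 conditions from 0.107% to 0.502%. In FACS-only against Pre-FACS the block raised that share from 0.123% to 0.633%. With the replicate block, limma called 3 members across the 4 conditions (0.502% of genes), Nfkbiz in addition, 1 in Mock against Pre-FACS (Nfkbia, 0.0576% of genes), 2 in Pre-enriched against FACS-only (Nfkbia and Tnfaip3, 0.0576% of genes) and 2 pathway genes, Cxcl1 and Zc3h12a, across the conditions in place of 0.

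In the input series, rescaling each library to the same TPM total left 1 called member in 10-cell pools against single cells, as did leaving out single cell 7, with 11.8% and 13.6% of all genes called in place of 21.1%. For 100-cell against 10-cell pools, 5 were called without 100-cell pools 4 to 6 and 7 without all 7 libraries that stood apart. For bulk RNA against 100-cell pools, 0 were called with no weights and 0 to 0 on leaving out either bulk library, where the remaining library is assumed to vary like the others. Exact permutation tests gave 0 of necessity, since 2 against 6 libraries cannot go below p = 0.0714.

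Nfkbiz changed sign near 0 in comparisons in which it was not called. Leaving out each library in turn gave -0.103 to 0.0426 in Pre-enriched against Pre-FACS (above 0 on removal of Pre-FACS replicate 3 or of Pre-enriched replicate 1), -0.0473 to 0.254 in Mock against Pre-FACS (below 0 without Mock replicates 1 or 3) and -0.291 to 0.00968 in Pre-enriched against Mock (above 0 without Mock replicate 3). Of the other values for single genes, 571 kept their side of the threshold, 13 passed it and 56 lost it. With 3 libraries a condition and no read depth for each library, small differences of the subunits could not be detected.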
